A study of Paralichthys olivaceus with 2 samples.

Results

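The overlapping PC-coded candidates are microarray probes whose targets share a stretch of sequence with one another, so that several probes read neighbouring or nested pieces of the same longer sequence. They were chosen by probe name, by a mean spot density under 10000 on both arrays, and by an exact overlap of at least 14 nucleotides (nt) with the target of another PC-coded probe. This rule took 341 of the 544 PC-coded probes and of 987 probes in all. Overlaps joined 340 of them into 85 sets, and 1 probe, PC498, overlapped only PC185 and PC404, which exceeded the density limit. Density was part of the choice, so the levels below are a description of selected probes. Spot density, the measured brightness of a spot on a linear scale, is given as the mean ± SD over 3 spots. Just inside the limit lay PC267, at 9955 at 29 days post hatching (dph) and 667 at 17 dph, and PC43, at 9472 at 29 dph and 1186 at 17 dph. Just outside it lay PC185, at 13829 at 29 dph and 1180 at 17 dph, and PC404, at 15086 at 29 dph and 1197 at 17 dph.

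The study profiled small RNAs of the Japanese flounder (Paralichthys olivaceus), taken from whole larvae, on single-colour miRNA arrays. One array held Cy5-labelled RNA of larvae at 29 dph, termed mid-metamorphosis in the labels, and the other held RNA of larvae at 17 dph, termed pre-metamorphosis. Each RNA came from a tube of 5 anaesthetised larvae, extracted with Trizol, and no strain or treatment differing between the stages is given. With 1 array per stage there was no replicate, no difference between stages could be tested, and every SD covers only the spread between spots of an array. Because whole larvae were used, more cells with an RNA and more of that RNA per cell cannot be told apart.

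A microRNA (miRNA) is cut from a hairpin precursor and guides repression of matching mRNAs. The bases near its 5' end, called the seed, choose the targets, so copies of a mature miRNA mostly begin at the same base while their 3' ends vary more. In the flounder, metamorphosis is driven by thyroid hormone and turns a symmetric swimming larva into a flatfish with both eyes on the same side. The labels do not explain the PC code, and no gene or precursor is paired with these probes in the files. The targets were not compared here with ribosomal or other longer RNAs, or with the adapters used in small RNA sequencing. Their origin was therefore not determined, and a candidate is not taken to be a miRNA. The sets are named here by their probe with the highest density at 29 dph.

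The sets with the most members show how the probes tile a sequence. Each line gives the targets of a set merged through their overlaps, 5' to 3' as RNA. Capitals mark the bases covered by at least 50% of the members.
PC169 set: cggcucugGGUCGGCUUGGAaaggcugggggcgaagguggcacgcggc
PC382 set: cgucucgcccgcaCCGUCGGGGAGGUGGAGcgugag
PC476 set: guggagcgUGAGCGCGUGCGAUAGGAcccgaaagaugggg
PC95 set: uccgCCCGGGGGAUUCAACUCGGCGgg
PC80 set: uccuuCUGGCUUUUUGGGUUUCAAGcag
PC182 set: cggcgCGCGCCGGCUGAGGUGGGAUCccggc
PC217 set: GCCCCCGGCGCGACUGUCGACCgg
PC34 set: uucUGGGUCAGGGUUUCGUGCgu

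The sets with the most positive and the most negative stage difference are shown in the same way, because the comparison of stages below turns on them. In sets of up to 4 members capitals mark the bases shared by every member, and in the PC230 set those covered by at least 50% of its 7 members. The first 5 lines are the most positive sets and the next 5 the most negative.
PC27 set: CUGACUUAGAACUGGUGCgg
PC158 set: AUGAUGUGUUGUUGCAAuag
PC460 set: cUAGCAGCUGACUUAGAAcugggg
PC194 set: uUGAGAGGUAAACGGGugggg
PC267 set: cgGAGACAGUGGCAGGUggggaguu
PC405 set: GGUGUGGGUGGUGGUUUa
PC230 set: cgguCGGCGGCGGCGACUCUGGAcgc
PC219 set: uGUGCCGCGGGGCGGUGuc
PC275 set: cgcccAGGGCGGGGAGCGGccc
PC17 set: aagcuCGUAGUUGGACCUCGgg

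The sets that were brightest on either array complete the sequences, with capitals again marking the bases shared by every member. The PC267 set above also belongs among the brightest at 29 dph, and the PC230 set among the brightest at 17 dph.
PC205 set: gGGGGUAAGGGAAGUCGgcaaa
PC43 set: gugccGCGGCUGGGGGAGCag
PC342 set: cugggUCGGUCGGGCUGGGGUG
PC241 set: GGAGAAGCUGGCGGGAg
PC298 set: ucgccGGUGCGGAAGGCgggcc
PC228 set: ccGGUGCGGGGGUUUCUUug

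Most sets were small and short. Of the 85 sets, 39 had 2 members, 18 had 3, 21 had 4 to 9, and 7 had 10 or more, together holding 97 members. The merged sequences spanned 17 to 48 nt with a median of 21 nt, and 71 of them spanned 24 nt or less. Only 5 sets, among them the PC169, PC382, PC476 and PC182 sets shown above, spanned more than 30 nt. The merged targets held no conflicting base, which the rule largely ensures, since targets joined directly had to match exactly. Member targets were 16 to 23 nt long with a median of 18 nt, against 18 to 25 nt with a median of 22 nt for the 263 probes of conserved miRNAs.

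The members varied at both ends. Of 46 sets with 3 or more members, 1 had a single start, the PC158 set, 2 had a single end, and 37 had at least 3 different starts. The 21 members of the PC169 set used 16 starts and 15 ends, and the 17 members of the PC382 set used 13 starts and 11 ends. Among the 574 pairs of members that overlapped by at least 14 nt, 88 (15.3%) shared their start and 90 (15.7%) shared their end. The PN-coded candidates, another class on the array, gave a contrast: of 101 pairs of a PN-coded target with a conserved miRNA target, found by the same overlap, 83 (82.2%) shared their start and 5 (4.95%) their end. Starts lay within 1 nt of each other in 38.7% of the member pairs and in 95.0% of the pairs of PN-coded with conserved targets. Varied starts were not particular to the members. Of 52 pairs of PC-coded probes above the density limit, 6 (11.5%) shared their start and 20 (38.5%) their end. Starts lay within 1 nt in 36.5% of those 52 pairs. Pairs within a set share members and are not independent, so the shares are descriptions.

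The PC205 set shows how a single set varied at its ends. Its targets begin at either of 2 neighbouring positions and end at 4 positions, with capitals marking the 16 bases shared by all 4.
PC32: gGGGGUAAGGGAAGUCGg
PC171: GGGGUAAGGGAAGUCG
PC205: GGGGUAAGGGAAGUCGgc
PC464: GGGGUAAGGGAAGUCGgcaaa

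No member target overlapped a PN-coded or conserved miRNA target by 14 nt, and the longest exact overlap of that kind was 8 nt. By contrast, 93 of the 180 PN-coded probes overlapped a conserved target by at least 14 nt. Of the other PC-coded probes, 183 below the density limit and 20 above, 19 overlapped a PN-coded or conserved target by 14 nt. Bases 2 to 8 of the target, the seed stretch of a miRNA, matched those of a conserved probe for 2 of 341 members, for 20 of 183 lone PC-coded probes and for 102 of 180 PN-coded probes. Lone means below the density limit with no overlap of at least 14 nt with the target of another PC-coded probe. The 2 members, PC314 and PC493, belong to one set and share these bases with miR-451, a miRNA of red blood cells. Capitals mark bases 2 to 8 of both targets in the next lines.
PC314: aAACCGUUgagagguaaa
PC493: aAACCGUUgagaggua
dre-miR-451: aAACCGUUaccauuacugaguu
PC314 read 240 at 29 dph and 47.6 at 17 dph, and PC493 read 91.4 at 29 dph and 48.8 at 17 dph. Beyond base 8 their letters part from those of miR-451.

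The member targets were rich in G and C. Their median GC content was 66.7%, with a range of 30.4% to 90.9%, and 239 of 341 (70.1%) held at least 60% GC. The same share was 41.0% of the lone PC-coded probes, 4.44% of the PN-coded probes and 3.80% of the conserved probes, whose median GC content was 43.5%. Taken by set, GC content was 33.3% to 90.9% with a median of 65.2%. The first base was U in 22.9% of members and in 57.8% of conserved probes. The first base was C in 33.4% of members and G in 30.5%, and the last base was G in 41.3%.

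The members were detected more often than the lone candidates on both arrays. Detection required 50% or more of a probe's spots to exceed a limit set by the 715 empty spots, their mean plus 3 SD, which was 45.6 at 29 dph and 68.7 at 17 dph. The members detected numbered 319 of 341 (93.5%) at 29 dph and 201 (58.9%) at 17 dph. The lone PC-coded probes detected numbered 107 of 183 (58.5%) at 29 dph and 65 (35.5%) at 17 dph, and the conserved probes 132 of 263 (50.2%) at 29 dph and 68 (25.9%) at 17 dph. The limit at 29 dph was lower, as were the empty spots of that array, whose median was 38.8 at 29 dph and 45.6 at 17 dph. All members of 74 sets were detected at 29 dph and of 34 sets at 17 dph, and 30 sets had no member detected at 17 dph.

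Measured densities, before any scaling between arrays, were higher at 29 dph for nearly all members. Member densities ran from 39.3 to 9955 at 29 dph with a median of 566, and from 40.9 to 2039 at 17 dph with a median of 82.8. The density at 29 dph exceeded that at 17 dph for 324 of 341 members, and the remaining 17 members were not detected on either array. The ratio of the density at 29 dph to that at 17 dph had a median of 5.19 over the members and a range of 0.848 to 47.9. It was at least 2 for 276 members and at least 10 for 62. The median ratio was 1.01 for lone PC-coded probes, 1.26 for the 20 PC-coded probes above the density limit, 1.05 for PN-coded probes and 0.978 for conserved probes. These medians include undetected probes, which were more frequent among lone, PN-coded and conserved probes. Among probes detected on both arrays, the median log2 difference without scaling was 2.74 for 201 members, 2.38 for 65 lone PC-coded probes, 1.29 for 58 PN-coded probes and 1.30 for 68 conserved probes. A density of 1000 or more was reached by 134 members at 29 dph and by 6 at 17 dph. In 75 of 85 sets every member read higher at 29 dph.

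Densities over all probes also differed between the arrays, and how far an array difference accounts for the members' ratios was not tested. Over every probe spot, members included, density had a median of 139 at 29 dph and of 55.4 at 17 dph. Over the 646 probes other than members the medians were 54.8 at 29 dph and 48.2 at 17 dph. Their median ratio was 1.02. Among the 369 of these that were detected, the median log2 difference without scaling was 1.04. Among 14 control probes bright on both arrays the ratio of 29 dph to 17 dph was 0.468 to 2.90, and 10 of them were dimmer at 29 dph. By name, 4 of the controls are 5S probes, and their ratios ran from 0.569 to 1.12. What the other controls target, and the amount of any control's target, was not analysed here.

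Quantile normalization, which forces the probes of both arrays onto a common distribution, removed most of the members' shift. Differences from here on are log2 values at 29 dph minus 17 dph after this step, with an offset of 50 that shrinks the differences of dim probes. The median difference over the 319 detected members was 0.24, against 0.050 over all 688 detected probes and -0.26 over the detected conserved probes. Without scaling the same medians were 2.35 for members, 1.59 for all detected probes and 1.07 for conserved probes, so any sign below is relative to the scaling. The gap between members and conserved probes had the same direction in the 9 settings run, of which 4, including no scaling, shift all probes alike and cannot change a gap between classes. Among probes detected on both arrays, 201 members and 68 conserved probes, the members' median difference was higher by 0.96 after quantile normalization, with a range of 0.88 to 1.48 over the settings. The members' median lay above that of the lone PC-coded probes by 0.23 to 0.37.

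A probe was called higher or lower when either array detected it, and when it differed by at least 2-fold after normalization, and had spot ranges that did not overlap between arrays. Called higher at 29 dph were 44 of the 319 detected members (13.8%), against 12.6% of all detected probes. Called lower at 29 dph were 15 members (4.70%), against 12.1% of all detected probes. The other 260 detected members passed neither limit. Of the 44 called higher, 22 were detected on both arrays and 22 at 29 dph only, while all 15 called lower were detected on both. Under the unequal limits of the arrays, no probe was detected at 17 dph only. Detection on either array was therefore the same as detection at 29 dph. For a member detected at 29 dph only, the fold is a lower bound after quantile normalization. It is taken against the higher of the member's own signal and the lowest detected signal, both at 17 dph. It does not bound the fold under another scaling. This bound exceeded 1 for 20 of those 22, at 1.05 to 6.29-fold. Without scaling, 266 members (83.4%) were called higher, against 66% of all detected probes, and 0 were called lower, against 0.872% of all detected probes.

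The calls lay in some of the sets, and whether they gathered in sets was not tested. A member called higher occurred in 25 sets and a member called lower in 6, and no set held both. The difference was positive for every member of 39 sets, negative for every member of 17, and of both signs in 29. Within a set, mostly of 2 or 3 members, the range of the differences had a median of 0.46. The median spot SD of a member's difference was 0.17. Members of a set share most of their target and are therefore not independent measurements of it.

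The PC27 set had the highest median difference, 2.29. PC513 read 2533 ± 86.6 at 29 dph and 78.4 ± 3.29 at 17 dph. PC27, which is longer by 2 G at its 3' end, read 2793 ± 139 at 29 dph and 93.4 ± 6.29 at 17 dph. Both were detected on both arrays, with differences of 2.39 for PC513 and 2.18 for PC27, and both were called higher. Over the alternative settings the median of the set lay between 1.85 and 4.73.

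The PC158 set held the probe with the highest ratio of densities, PC158 itself at 47.9, and was not detected at 17 dph. The median ratio of the set was 11.98, below the 31.1 of the PC27 set. Its 3 targets share their start and add bases at the 3' end, with capitals marking the 17 shared bases.
PC68: AUGAUGUGUUGUUGCAA
PC189: AUGAUGUGUUGUUGCAAua
PC158: AUGAUGUGUUGUUGCAAuag
PC68 read 215 ± 14.1 at 29 dph and 44.9 ± 2.21 at 17 dph, and PC189 read 534 ± 26.2 at 29 dph and 44.6 ± 0.39 at 17 dph. PC158 read 2081 ± 157 at 29 dph and 43.4 ± 2.13 at 17 dph. None of the 3 was detected at 17 dph, while each was detected at 29 dph with no overlap of the spots. After quantile normalization PC158 was at least 5.60-fold and PC189 at least 1.83-fold higher at 29 dph, while PC68 has no bound above 1. The median difference of the set was 2.11, and lay between 0.32 and 7.05 over the alternative settings. The first 11 bases of PC178, a probe of another set, match the end of PC158.

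The PC460 and PC27 sets carry related sequences. PC460 and PC27 overlap by 17 nt with 1 mismatch, and PC256 and PC27 overlap by 11 nt exactly, which is under the 14 nt that joined sets. PC460 read 569 ± 17.4 at 29 dph and 45.5 ± 2.67 at 17 dph, and PC291 read 559 ± 13.4 at 29 dph and 46.7 ± 4.53 at 17 dph. PC256 read 157 ± 10.3 at 29 dph and 41.7 ± 3.67 at 17 dph. PC460 and PC291 were called higher, at least 1.93-fold and at least 1.91-fold, and PC256 lay just under the 2-fold limit, with a difference of 0.997. None of the 3 was detected at 17 dph. The median difference of the PC460 set was 1.97, and lay between 0.34 and 5.8 over the alternative settings.

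In the PC267 set all 3 members were detected on both arrays, and in the PC194 set 2 of 3 were, PC311 being detected at 29 dph only. PC50 read 2190 ± 34.7 at 29 dph and 85.5 ± 16.8 at 17 dph, PC401 read 9026 ± 444 at 29 dph and 417 ± 23.0 at 17 dph, and PC267 read 9955 ± 726 at 29 dph and 667 ± 8.03 at 17 dph. Their differences were 2.05, 1.60 and 1.14, all called higher. In the PC194 set, PC311 read 586 ± 60.1 at 29 dph and 51.3 ± 3.88 at 17 dph, and PC478 read 2019 ± 180 at 29 dph and 97.8 ± 10.5 at 17 dph. PC194 read 6124 ± 507 at 29 dph and 618 ± 69.6 at 17 dph. PC478 was called higher with a difference of 1.67, and PC311 was called higher and was at least 1.97-fold higher at 29 dph. PC194 differed by 0.35 and was not called. The medians of both sets were positive under every alternative setting, the lowest being 1.34 for the PC267 set and 0.40 for the PC194 set.

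All 4 members of the PC205 set, whose ends are printed above, were called higher and were among the brightest at 29 dph. PC205 read 8547 ± 342 at 29 dph and 453 ± 48.9 at 17 dph, and PC464 read 8203 ± 810 at 29 dph and 538 ± 24.8 at 17 dph. PC32 read 7152 ± 699 at 29 dph and 323 ± 24.4 at 17 dph, and PC171 read 5706 ± 250 at 29 dph and 310 ± 43.1 at 17 dph. The differences lay between 1.09 and 1.58, and the set median between 1.15 and 4.17 over the alternative settings.

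The PC230 set held 6 of the 15 calls in the other direction, the most of any set. PC230, its brightest probe, read 5538 ± 512 at 29 dph and 2039 ± 125 at 17 dph, the highest density of any member at 17 dph. PC332, the dimmest at 29 dph and 1 of the shortest, read 1427 ± 125 at 29 dph and 636 ± 16.4 at 17 dph. PC504, also 16 nt long, read 2438 ± 72.7 at 29 dph and 905 ± 26.5 at 17 dph. All 7 members were brighter at 29 dph by measured density, with ratios of 2.05 to 4.79, but this lay below the median ratio of all members, and 6 of 7 were called lower after normalization. The median difference was -1.49 and was 1.29 without scaling.

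The PC405, PC219, PC275 and PC17 sets were the other sets with the most negative medians. PC405 read 896 ± 37.4 at 29 dph and 304 ± 29.2 at 17 dph. PC144, which is longer than PC405 by a 3' A, read 494 ± 91.6 at 29 dph and 319 ± 23.7 at 17 dph. Their differences were -1.14 and -1.92, both called lower, and the difference of PC144 was the lowest of all members.

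In the PC219 set, PC219 read 531 ± 27.1 at 29 dph and 224 ± 9.12 at 17 dph, PC538 read 407 ± 40.4 at 29 dph and 179 ± 24.1 at 17 dph, and PC249 read 437 ± 36.9 at 29 dph and 163 ± 14.6 at 17 dph. PC219 and PC538 were called lower, with differences of -1.29 and -1.18, and PC249 was not called at -0.94. All 3 were detected on both arrays, and without scaling the set median was 1.20.

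The 4 members of the PC275 set overlap in 14 nt made mostly of G and C, and their differences varied. PC275 read 2698 ± 105 at 29 dph and 394 ± 39.1 at 17 dph, and PC153 read 1687 ± 105 at 29 dph and 392 ± 20.1 at 17 dph. PC511 read 1187 ± 23.6 at 29 dph and 362 ± 36.2 at 17 dph, and PC31 read 1154 ± 78.7 at 29 dph and 396 ± 12.2 at 17 dph. The 4 probes read nearly alike at 17 dph and apart at 29 dph. PC511 and PC31, which lack the first bases of the set, were called lower at -1.06 and -1.25, while PC275 at -0.17 and PC153 at -0.78 were not called.

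In the PC17 set, PC17 read 1619 ± 69.2 at 29 dph and 584 ± 26.9 at 17 dph, and PC15 read 1550 ± 166 at 29 dph and 531 ± 34.4 at 17 dph. Both were called lower, with differences of -1.40 and -1.31. PC510 read 232 ± 22.9 at 29 dph and 84.9 ± 2.59 at 17 dph, and PC524 read 563 ± 23.6 at 29 dph and 147 ± 12.5 at 17 dph. Neither of these dimmer members was called, at -0.48 and -0.50, and without scaling the set median was 1.48.

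Other bright sets showed no called difference. In the PC43 set, PC43 read 9472 ± 419 at 29 dph and 1186 ± 104 at 17 dph, and PC389 read 7533 ± 581 at 29 dph and 1239 ± 53.1 at 17 dph. In the PC241 set, PC241 read 9384 ± 333 at 29 dph and 1437 ± 158 at 17 dph, and PC541, shorter by 1 G at the 3' end, read 3489 ± 122 at 29 dph and 303 ± 35.3 at 17 dph. The differences of these 4 probes ran from -0.14 to 0.57.

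In the PC342 set, whose targets share their 3' end, PC342 read 7934 ± 550 at 29 dph and 800 ± 74.8 at 17 dph. PC81 read 6822 ± 412 at 29 dph and 617 ± 39.2 at 17 dph, and PC179 read 6314 ± 395 at 29 dph and 640 ± 53.5 at 17 dph. Differences of 0.35 to 0.58 missed the limit.

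The PC228 and PC298 sets were among the brightest at 17 dph. PC228 read 3459 ± 322 at 29 dph and 667 ± 50.3 at 17 dph, PC35 read 3048 ± 168 at 29 dph and 535 ± 31.0 at 17 dph, and PC23 read 3388 ± 251 at 29 dph and 681 ± 34.7 at 17 dph. PC298 read 4741 ± 344 at 29 dph and 713 ± 52.0 at 17 dph, PC86 read 4639 ± 164 at 29 dph and 798 ± 16.2 at 17 dph, and PC546 read 1081 ± 69.96 at 29 dph and 237 ± 21.5 at 17 dph. All 6 differences were negative, between -0.68 and -0.25, and none was called. Without scaling the set medians were 2.35 for the PC228 set and 2.52 for the PC298 set.

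The sets with the most members differed in how many were called. In the PC169 set, 0 of 21 members were called, and densities ran from 328 to 6042 at 29 dph with a median of 1710 and from 63.8 to 583 at 17 dph with a median of 196. PC169 was the brightest, at 6042 ± 222 at 29 dph and 583 ± 26.9 at 17 dph, and PC370 the dimmest, at 328 ± 15.4 at 29 dph and 63.8 ± 9.37 at 17 dph. PC367, the longest at 21 nt, read 2428 ± 89.6 at 29 dph and 424 ± 37.9 at 17 dph, and PC303, among the shortest at 16 nt, read 1118 ± 102 at 29 dph and 140 ± 9.92 at 17 dph. The targets lie along a 48 nt sequence, and the differences over the 21 members ran from -0.44 to 0.88.

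In the PC382 set, 0 of 17 members were called, and density differed with position. PC382 read 3884 ± 256 at 29 dph and 486 ± 43.5 at 17 dph, and PC134 read 74.0 ± 2.50 at 29 dph and 46.6 ± 4.55 at 17 dph. The 4 probes that begin at positions 1 to 4 of the merged sequence read 74.0 to 144 at 29 dph, and the 5 that begin at positions 17 to 19 read 2486 to 3006. PC161, among the shortest at 16 nt, begins between them and read 750 ± 60.6 at 29 dph and 95.3 ± 0.23 at 17 dph. PC470, the longest at 23 nt, was among the dim ones, at 144 ± 15.9 at 29 dph and 63.7 ± 2.83 at 17 dph. The rank correlation of the densities of the 2 arrays over these 17 probes, which share sequence and arrays, was 0.99.

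In the PC476 set, 1 of 17 members was called, and it lies at the 3' end of the set. PC141 read 2293 ± 164 at 29 dph and 141 ± 20.2 at 17 dph, with a difference of 1.25. PC476 read 3696 ± 266 at 29 dph and 262 ± 18.3 at 17 dph, and PC294, the dimmest, read 81.6 ± 1.91 at 29 dph and 46.7 ± 2.22 at 17 dph. Several nested neighbours differed strongly in density: PC201 read 521 ± 55.2 at 29 dph and 90.4 ± 10.98 at 17 dph, and PC215, which adds 2 C at the 3' end, read 2511 ± 72.3 at 29 dph and 373 ± 40.8 at 17 dph.

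The PC80 set had the widest spread of densities, with its brightest probe 150 times its dimmest at 29 dph. PC80 read 6018 ± 227 at 29 dph and 153 ± 21.8 at 17 dph. PC222 read 2361 ± 196 at 29 dph and 65.1 ± 7.13 at 17 dph, and was at least 6.29-fold higher, the highest bound among the members. PC283, inside the stretch that PC80 covers, read 40.1 ± 0.1 at 29 dph and 41.3 ± 3.75 at 17 dph and was not detected on either array. PC83, the 5' end of the set, was likewise undetected, at 42.5 ± 2.30 at 29 dph and 45.1 ± 3.37 at 17 dph, while PC406, longer than PC83 by 2 G, read 1213 ± 79.8 at 29 dph and 55.0 ± 3.52 at 17 dph. In this set 5 of 10 members were called higher, 7 were detected at 29 dph and 1 at 17 dph. The set median was 0.94. Over the alternative settings it lay between -1.39 and 3.2, so its sign depends on the scaling.

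The PC95, PC182, PC217 and PC34 sets held 2 members called higher, both in the PC34 set, and 0 called lower. PC95 read 1399 ± 128 at 29 dph and 123 ± 15.1 at 17 dph, and PC359, the dimmest and shortest of its set, read 183 ± 13.3 at 29 dph and 60.1 ± 6.38 at 17 dph. The 12 members of the PC95 set differed by 0.03 to 0.98, all positive and all short of the limit, and 4 of them were detected at 17 dph. The median of this set lay between -0.84 and 2.0 over the alternative settings, so its sign depends on the scaling.

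PC182 read 1949 ± 143 at 29 dph and 226 ± 10.3 at 17 dph, and PC466 read 73.6 ± 5.16 at 29 dph and 48.8 ± 2.48 at 17 dph, while PC519, the longest at 23 nt, read 406 ± 33.5 at 29 dph and 93.9 ± 5.72 at 17 dph. The PC217 set was dim on both arrays. PC217 read 214 ± 11.2 at 29 dph and 59.3 ± 3.42 at 17 dph, and PC529, among its longest at 22 nt, read 172 ± 7.51 at 29 dph and 58.0 ± 5.63 at 17 dph. PC209, among its shortest, read 53.1 ± 5.02 at 29 dph and 47.7 ± 3.93 at 17 dph. All 10 members of the PC217 set were detected at 29 dph and 0 at 17 dph. Its brightest probe was dimmer than those of the other sets with the most members.

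In the PC34 set, PC34 read 5838 ± 358 at 29 dph and 590 ± 33.7 at 17 dph, and PC270 read 130 ± 3.51 at 29 dph and 47.8 ± 1.49 at 17 dph. PC266 and PC280, at its 5' end, were called higher, with bounds of at least 1.41-fold and at least 2.61-fold. PC266 read 370 ± 27.7 at 29 dph and 49.0 ± 5.22 at 17 dph, and PC280 read 827 ± 58.4 at 29 dph and 62.0 ± 16.3 at 17 dph. Neither was detected at 17 dph. PC197, which begins with PC280 and is longer by 1 G at its 3' end, was detected on both arrays and was not called. It read 1027 at 29 dph and 109 at 17 dph.

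Density varied widely among probes of the same set. A density depends on how well a probe binds as well as on how much RNA is present, so an order of densities is not an order of RNA amounts. The brightest member exceeded the dimmest by a median of 2.44-fold per set at 29 dph and 1.38-fold at 17 dph. Background was not subtracted, and undetected members, of which there were more at 17 dph, are included. How far this narrows the fold at 17 dph was not tested. The brightest member was the same probe on both arrays in 56 of 85 sets. The 85 include 30 sets with no member detected at 17 dph, where the order rests on undetected probes. They also include 39 sets of only 2 members. Within the 15 sets of 6 or more members, the rank correlation of member densities between the arrays had a median of 0.88 and a range of 0.21 to 0.99. The lowest was that of the PC514 set, with 3 of 7 members detected at 29 dph and 0 at 17 dph. These points share target sequence and both arrays, and no p is given.

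Longer targets were mostly brighter than the targets nested in them. Of 227 nested pairs with at least 1 member detected at 29 dph, the longer was brighter in 189 (83.3%), by a median of 1.62-fold over the pairs. At 17 dph the longer was brighter in 104 of 126 pairs with both members detected. Extra bases at the 5' end only went with a brighter probe in 80 of 88 pairs (90.9%), and extra bases at the 3' end only in 62 of 84 (73.8%). Pairs longer at both ends had the largest median, 2.38-fold, with the longer brighter in 47 of 55. Pairs that share a set share a sequence, and the 227 pairs came from 54 sets, in 46 of which the median pair was above 1.

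With 1 added base the outcome was less uniform. A 1 nt addition at the 5' end went with a brighter probe in 23 of 28 pairs and at the 3' end in 24 of 37. Among 3' additions, U was brighter in 4 of 4 pairs, C in 10 of 16, G in 9 of 13 and A in 1 of 4. The PC144 and PC405 pair above is one of the A cases. Its fold, the density of PC144 over that of PC405, was 0.552 at 29 dph and 1.05 at 17 dph. PC155 adds a C to PC234 in the PC476 set, and its density was 4.75 times that of PC234 at 29 dph and 3.15 times at 17 dph. PC155 read 846 ± 98.6 at 29 dph and 175 ± 6.33 at 17 dph, and PC234 read 178 ± 32.2 at 29 dph and 55.5 ± 3.71 at 17 dph. PC234 was not detected at 17 dph, so the fold there is taken against an undetected reading.

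GC content went with the level and the stage difference in different ways. Over the 85 sets, the rank correlation of GC content with set density was 0.28 at 29 dph and 0.47 at 17 dph, and with the normalized stage difference -0.37. Without scaling the rank correlation with the stage difference was 0.11, so its sign depends on the scaling. Sets share the 2 arrays and their scaling, and base composition acts on probe binding, so these are descriptions with no p. The 173 members in 35 sets of at least 70% GC were all detected at 29 dph and 123 were at 17 dph, and 3 were called higher and 10 lower.

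By probe, the rank correlation of GC content with the normalized difference was -0.43 for members and 0.01 for lone PC-coded probes. The 79 members in 24 sets of 45% to under 60% GC held the most calls, 28 higher and 4 lower, with 70 detected at 29 dph and 37 at 17 dph. Over all 688 detected probes, of any GC content, 87 were called higher and 83 lower. Shares over all probes of like GC content were not computed. The 61 members in 18 sets of 60% to under 70% GC had 7 higher and 1 lower. The 27 members in 8 sets under 45% GC had 17 detected at 29 dph and 0 at 17 dph, and 6 were called higher and 0 lower. The ratio of set density at 29 dph to that at 17 dph had medians of 1.13 under 45% GC, 4.23 at 45% to under 60%, 5.68 at 60% to under 70% and 4.85 at 70% or more. In the sets with the least GC a difference can only be bounded, since no member was detected at 17 dph.

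The sets were not fully separate at the 14 nt limit. Of the member pairs that joined sets, 97 overlapped by exactly 14 nt, and 90 further pairs of PC-coded probes under the density limit overlapped by exactly 13 nt. Links of 11 to 13 nt connected 25 sets to another set. The PC382 and PC476 sets, 2 of the largest, were linked by 12 nt, between PC188 and PC175, and PC190 of the PC95 set overlapped PC481 of another set by 13 nt. PC188 read 2487 ± 186 at 29 dph and 298 ± 21.9 at 17 dph, and PC175 read 748 ± 55.9 at 29 dph and 128 ± 6.84 at 17 dph. Their differences were 0.11 for PC188 and 0.04 for PC175.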

How the data were processed

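Per the labels' protocols, RNA under 300 nt was separated on a size filter, poly(A)-tailed and ligated to a tag that was stained, here with Cy5. The authors deposited, for each array, the mean intensity of every spot, called density in the files, with target sequences and 3 spots per probe. The values appear linear and neither background-subtracted nor scaled between arrays, as judged from the values. The scanner is not given in the sources used here, nor is the image software. The authors also deposited a table with 1 processed intensity per probe, whose background and scaling steps are unknown. It served as an alternative.

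Overlaps were exact suffix-to-prefix or nested matches, and members were joined as connected components with networkx 3.6.1. Densities were corrected by normexp (offset 50) in limma 3.58.1 (R 4.3.3), log2-transformed, quantile-normalized over the probe spots and averaged per probe. Sums, ranks and counts came from SciPy 1.17.1, NumPy 2.4.6 and pandas 2.3.3 in Python 3.11.15. The set-building and the calls were tried on simulated data with spot noise and equal numbers of changes in each direction. No class of probes was shifted as a whole in that simulation. It therefore cannot show how the calls depend on the scaling. With 2 arrays in all, their number limits the precision, and no p-value was computed.

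Sets were named in the text by rule. The rule took the 8 sets with the most members, the 5 with the highest and the 5 with the lowest median difference among sets with at least 50% of members detected, and the 5 brightest on each array. Sets overlapping a known miRNA would have been added, and there were 0. All members are given for sets of up to 4, and the brightest, dimmest, longest and shortest for larger ones, with ties and probes in direct comparisons chosen after their values were seen. The members and lists were chosen with earlier results of these data known. Alternatives changed the scaling, the background step, the source table, the fold limit, the detection limit, the overlap and the density limit. After seeing the data, scaling to the conserved probes and a fit without the GC trend were added.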

Additional observations from a re-analysis of the deposited data

How the results depend on the processing

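The number of members called higher at 29 dph, 44 as reported, was 266 with no scaling between arrays, 22 with scaling to the 75th percentile, 96 with plain background subtraction, 127 with scaling to the conserved probes, 84 in the authors' deposited table, 89 at 1.5-fold and 12 at 4-fold. The number called lower, 15 as reported, was 0 with no scaling, 88 with scaling to the median, 119 to the 75th percentile, 28 with plain subtraction, 32 with the conserved probes, 28 in the authors' deposited table, 31 at 1.5-fold and 0 at 4-fold. Except with no scaling, the shares over all detected probes were not computed for these settings. The median difference over all 688 detected probes was -0.83 with scaling to the median and -1.29 to the 75th percentile. Over the 319 detected members it was -0.070 and -0.53. These counts alone therefore do not set the members apart. The median log2 difference over all 341 members, detected or not, was 0.19 after quantile normalization. It was 2.21 with no scaling, 0.474 with plain subtraction and 0.612 with the conserved probes. It turned to -0.207 with the median and -0.671 with the 75th percentile. The median range within sets, 0.459, was 0.755 with no scaling or with any single scaling factor, 0.958 with plain subtraction and 0.774 in the authors' deposited table. The rank correlation of set GC content and difference, -0.373, turned to 0.112 with no scaling or any single factor, and was -0.492 with plain subtraction and -0.253 in the authors' deposited table. With no scaling the median turned to 1.29 for the PC230 set, 1.20 for the PC219 set and 1.06 for the PC405 set. The fewer or more calls at other fold limits follow from the limit, and for the scalings the cause was not tested.

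Cyclic loess, the median of the spots, no background correction, other detection limits and removal of the GC trend kept both counts within 1.5 times. Over the alternatives to the rule, members numbered 295 to 366 and sets 77 to 89. Of 240 values for the 24 named sets under 10 settings, 113 moved by less than the spot spread, 124 moved by more, some of smaller size than 2-fold with a change of sign (as in the PC17 set), and 3 of at least 2-fold, named above, changed sign. Scaling to the conserved probes and the GC trend were added after seeing the data. No paired analysis was possible because each stage has 1 array, and no replicate could be left out. Members near the detection limit allow only bounds.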

Other observations

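One small set, outside the naming rule and chosen after its values were seen, had the widest range of differences within a set, 3.69. PC265 read 1844 ± 86.3 at 29 dph and 42.5 ± 2.65 at 17 dph, and was at least 5.08-fold higher at 29 dph. PC178, which covers its first 16 bases, read 41.8 ± 2.00 at 29 dph and 45.5 ± 2.25 at 17 dph. PC456, which covers its last 16 bases, read 44.0 ± 1.89 at 29 dph and 45.7 ± 1.54 at 17 dph. Neither shorter probe was detected on either array. The 3 targets follow, with capitals marking the 11 bases common to all of them.
PC178: uguugcaAUAGUAAUCCU
PC265: uugcaAUAGUAAUCCUgcuca
PC456: AUAGUAAUCCUgcuca

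Members with no detected signal were few. No member of 5 sets was detected on either array, and 62 members read under 100 at 29 dph. The targets of those 5 sets, too, were not compared with the adapters used in small RNA sequencing. The longest stretch over which a member's target was complementary to another copy of itself was 12 nt. It occurred in PC225 of the PC182 set and in PC432 of another set, whose targets share that stretch. The stretch is its own reverse complement, so a single copy could not pair over all 12 nt. PC498, which overlapped only brighter probes, read 106 ± 12.8 at 29 dph and 48.4 ± 0.717 at 17 dph.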
